A study of Mus musculus with 4 samples.

Results

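The oligoadenylate synthetases (OAS) are antiviral proteins of the interferon response, and their transcripts were followed here in Ba/F3 cells, a mouse pro-B cell line that depends on interleukin-3 (IL-3). The family was taken as 8 genes, Oas1a, Oas1b, Oas1c, Oas1g, Oas2, Oas3, Oasl1 and Oasl2, and a gene was measured when the platform annotation gave a probe set its symbol and no other. By that rule 7 of the 8 genes were measured, with 1 probe set each, among 19935 genes on the array. Oas1g shares its only annotated probe set with Oas1a and was not measured. The series holds 4 Affymetrix Gene 1.0 ST arrays, which read RNA with probes spread along each transcript. BCR-ABL cells with IL-3 gave 1 array: Ba/F3 cells with a BCR-ABL construct inducible by doxycycline, grown with doxycycline at 500 ng/ml and IL-3. BCR-ABL cells without IL-3 gave 2 arrays, A and B, from such cells grown with doxycycline at the same dose and no IL-3. Parental Ba/F3 cells grown with IL-3 gave 1 array, and the labels name doxycycline only for the inducible cells. BCR-ABL, a tyrosine kinase fusion found in chronic myeloid leukaemia, is blocked by imatinib, and the submitters sought kinase- and growth factor-driven genes linked to resistance to that drug. The labels do not say whether the inducible line is a clone or whether A and B are separate cultures. The p-values rest on the spread between these 2 arrays, drawn largely from all genes together, and that spread may be technical.

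OAS enzymes bind double-stranded RNA and join ATP into short oligoadenylates, second messengers of the antiviral response. In most cells their transcripts are low until type I interferon, acting through the receptor chains IFNAR1 and IFNAR2, the kinases JAK1 and TYK2 and a complex that holds STAT2 and IRF9, switches on genes with an interferon-stimulated response element (ISRE). The mouse has many Oas1 copies of unequal activity, single Oas2 and Oas3 genes, and a pair of OAS-like genes whose proteins end in ubiquitin-like domains.

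The deposited values are differences from the parental array on a log scale, read here as log2, so the parental value of every gene is 0 and a value of 1 stands for a 2-fold higher signal. The absolute level of a gene was therefore not analysed here. The median over all probe sets was 0.0029 for BCR-ABL cells with IL-3, -0.0016 on A and -0.064 on B, and over genes the SD of A minus B was 0.196. The spacing of the stored values shows for some probe sets that their log2 signal was below 8 on at least 1 array, and these are called dim. By that mark 0 of the 7 measured OAS genes were dim, although the mark misses some dim probe sets.

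To show the promoter sequence of the genes whose transcripts are described below, the RefSeq windows from 250 bases before to 50 bases after each annotated start were searched on both strands for the core of an ISRE, which is 2 copies of GAAA with any 2 bases between them, and for TTCNNNGAA, the element bound by STAT dimers. Windows were found for 6 of the 8 genes, and Oas2 and Oas1b had none in the table used. The 150 bases before each start are printed 5′ to 3′ on the strand of the gene (RefSeq, build GRCm38.p6), at chr5:114896784-114896933 on the plus strand for Oasl2, chr5:114923090-114923239 on the plus strand for Oasl1, chr5:120777660-120777809 on the minus strand for Oas3, chr5:120907526-120907675 on the minus strand for Oas1a, chr5:120887614-120887763 on the minus strand for Oas1g and chr5:120812515-120812664 on the minus strand for Oas1c. Capitals mark matches to either motif.
Oasl2: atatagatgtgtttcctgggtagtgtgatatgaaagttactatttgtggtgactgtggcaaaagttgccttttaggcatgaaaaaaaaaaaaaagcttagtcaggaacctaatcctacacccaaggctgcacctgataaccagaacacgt
Oasl1: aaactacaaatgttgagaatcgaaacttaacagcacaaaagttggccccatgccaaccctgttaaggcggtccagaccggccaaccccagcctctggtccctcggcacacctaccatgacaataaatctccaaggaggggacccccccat
Oas3: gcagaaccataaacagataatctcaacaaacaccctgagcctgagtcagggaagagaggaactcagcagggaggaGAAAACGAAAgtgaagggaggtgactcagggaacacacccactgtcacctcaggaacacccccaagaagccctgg
Oas1a: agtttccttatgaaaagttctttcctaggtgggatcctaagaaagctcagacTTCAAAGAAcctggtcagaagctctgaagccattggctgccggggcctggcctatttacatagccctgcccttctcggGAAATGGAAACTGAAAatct
Oas1g: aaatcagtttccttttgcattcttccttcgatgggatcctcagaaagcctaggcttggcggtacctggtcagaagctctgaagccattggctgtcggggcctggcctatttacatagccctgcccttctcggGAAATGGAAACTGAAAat
Oas1c: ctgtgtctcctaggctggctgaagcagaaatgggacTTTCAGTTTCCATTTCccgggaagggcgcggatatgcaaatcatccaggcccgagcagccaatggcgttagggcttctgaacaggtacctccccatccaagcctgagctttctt

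The ISRE core was found in the windows of Oas1a, Oas1g, Oas1c and Oas3, which is 4 of 6, where 3.44% of all 32851 windows of this length hold it. The windows of Oasl1 and Oasl2 held no exact match, and each held 1 or more when 1 mismatch was allowed, as did 35.4% of all windows. The STAT element was found in the window of Oas1a alone, at -98 to -90, and in 8.3% of all windows. In Oas1a and Oas1g the capitals near the start are 2 overlapping ISRE cores in a 16-base stretch, at -20 to -5 in Oas1a and at -18 to -3 in Oas1g. The printed stretches of Oas1a and Oas1g aligned at 145 base pairs, of which 89.0% were identical. The Oas1c window carries the same 16 bases on the opposite strand, at -114 to -99. Read outwards from Oas1c, that copy ends 6 bases before the annotated span of Oas1b, the next gene on the chromosome. Over all windows the stretch occurred in 7, belonging to 5 genes, of which the others were Apol9a and Apol9b. These matches describe letters in fixed windows and do not show binding.

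The first comparison asked how OAS transcripts differ when the kinase stands in for the growth factor, using arrays A and B (n = 2) and the parental array (n = 1). Of 7 measured genes 5 rose, Oasl2, Oas2, Oas3, Oasl1 and Oas1b, and 1 fell, Oas1c, while Oas1a did not pass (limma, adjusted p under 0.05 over all 19935 genes). The increases ran from 1.64-fold to 4.81-fold. Over all genes 5.19% were called higher and 2.87% lower. At an unadjusted p under 0.05 all 7 passed, as did 16.6% of all genes. The median of the 7 differences was 1.08, and that of all genes -0.04 (log2). On both arrays 4 of the 7 genes were at least 2-fold above the parental array, a gap that 0.903% of all genes had. The kinase, the drug that induces it, the engineered line and the lack of IL-3 all separate these groups. In BCR-ABL cells given IL-3 (n = 1), Oasl2, Oas2, Oas3 and Oasl1 stood at 2.71, 2.19, 1.74 and 1.37, against 0 in parental cells (n = 1). Oas1b stood at 0.67 there, against 0.72 in the mean of A and B, and Oas1c at -0.56, against -0.53. The part of the lack of IL-3 in the differences from parental cells was not tested. BCR-ABL cells with and without IL-3 are compared below. The kinase, the drug and the engineered line cannot be told apart. The RNA is of whole cultures, so a change in how many cells hold a transcript and a change in its amount per cell cannot be told apart either.

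**Figure D1:**
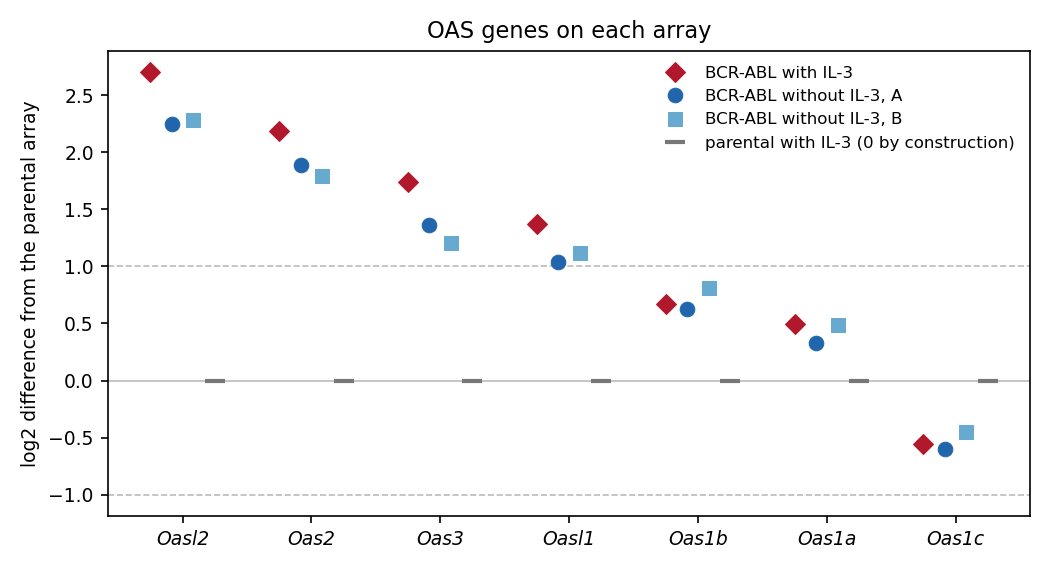
The log2 difference from the parental array is plotted for each of the 7 measured OAS genes in BCR-ABL cells with IL-3 and on arrays A and B, with the parental array at 0 by construction and dashed lines at a 2-fold difference. Oasl2, Oas2, Oas3 and Oasl1 lie above the upper dashed line on all 3 BCR-ABL arrays, and Oas1c lies below 0 on all 3.

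The OAS-like genes come first. Oasl2, which in mouse keeps synthetase activity, stood at 2.25 on A and 2.29 on B, against 0 on the parental array (log2). It was 4.81-fold higher in BCR-ABL cells without IL-3 (log2 2.27 ± 0.15, SE, adjusted p = 2.31e-08 by limma), the largest difference of the family, and A and B were closer to each other than for any other member. Oasl1, which lacks synthetase activity and in mouse represses translation of the Irf7 message, stood at 1.04 on A and 1.12 on B, against 0 on the parental array. Its increase was 2.11-fold (log2 1.08 ± 0.15, SE, adjusted p = 0.000153 by limma). When each array's median over all probe sets was subtracted, adjusted p by limma was weaker, 0.00535 for Oasl2 and 0.0247 for Oasl1. Arrays A and B both lay above the parental array for each of these genes, and the 95% interval of Oasl2 (1.94 to 2.59) lay wholly above that of Oasl1 (0.76 to 1.40).

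Oas2 and Oas3 encode the larger synthetases, built from repeated OAS units. Oas2 stood at 1.89 on A and 1.79 on B, against 0 on the parental array, and was 3.58-fold higher (log2 1.84 ± 0.15, SE, adjusted p = 3.53e-07 by limma). Oas3, the largest of the synthetases, stood at 1.36 on A and 1.21 on B, against 0 on the parental array. It was 2.44-fold higher (log2 1.28 ± 0.16, SE, adjusted p = 2.82e-05 by limma). Both genes were more than 2-fold above the parental array on A and on B. With array medians subtracted, their adjusted p by limma was weaker, 0.00654 for Oas2 and 0.0161 for Oas3.

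The Oas1 genes moved less, and not all in 1 direction. Oas1b, whose full-length protein restricts flaviviruses and which many laboratory strains carry in a truncated form, stood at 0.62 on A and 0.81 on B, against 0 on the parental array. It was 1.64-fold higher (log2 0.72 ± 0.16, SE, adjusted p = 0.00661 by limma), and RefSeq lists it as a transcribed pseudogene in the reference strain. Oas1a, an active synthetase, stood at 0.33 on A and 0.49 on B, against 0 on the parental array, and did not pass (log2 0.41 ± 0.16, SE, adjusted p = 0.147 by limma). Oas1c, which lacks synthetase activity, stood at -0.60 on A and -0.45 on B, against 0 on the parental array. It was 1.44-fold lower (log2 -0.53 ± 0.16, SE, adjusted p = 0.0434 by limma) and so moved against the 5 genes that rose. Subtracting from each array its median over all probe sets left Oas1b (adjusted p = 0.0702) and Oas1c (adjusted p = 0.154) uncalled by limma, with their directions kept. The call of Oas1c was also lost without dim genes (adjusted p = 0.0504 by limma). The Oas1 genes are close copies, and how far their probes pick up each other's transcripts was not tested.

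**Figure D2:**
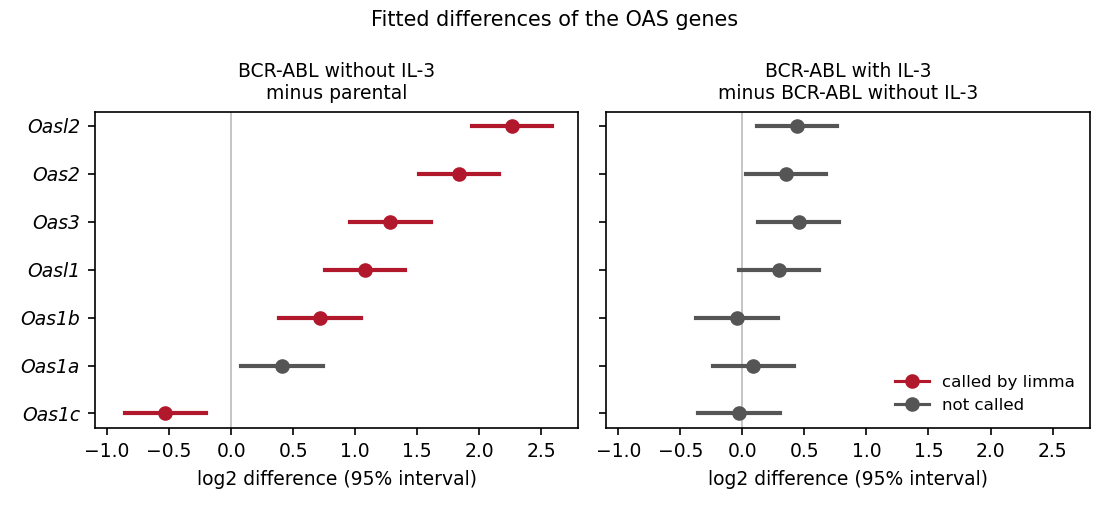
Fitted log2 differences with 95% intervals from limma are shown for the 7 measured OAS genes, on the left for BCR-ABL cells without IL-3 minus parental cells and on the right for BCR-ABL cells with IL-3 minus BCR-ABL cells without IL-3. On the left 6 genes are coloured as called, and on the right 0 are.

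From high to low, the order of the differences was Oasl2, Oas2, Oas3, Oasl1, Oas1b, Oas1a and Oas1c, and it was the same on A, on B and on the array with IL-3, which share the parental array. The 95% intervals of neighbours in that order overlapped for every pair except Oas1a and Oas1c, whose differences were 0.94 apart (log2).

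Genes named Oas1d, Oas1e, Oas1f and Oas1h lie outside the 8 and were looked at after their values were seen. They are further Oas1 copies, and 0 of the 4 were called, with differences from -0.06 to 0.07 (log2). Over all genes 8.06% were called in either direction, a share at which few of 4 genes would be. All 4 of these Oas1 copies were dim by the mark described above.

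The 8 genes lie on mouse chromosome 5 in a block of Oasl2 and Oasl1 and a block that runs from Oas2 to Oas1a. The 5 genes on each side of each block and the 4 that lie between members make 24 in all, of which 14 were measured. Of these 0 were called in either direction, where 8.06% of all genes were called, a share at which few of 14 genes would be. The 14 include Oas1d, Oas1e, Oas1f and Oas1h from above. The differences of the 14 ran from -0.48 to 0.21 with a median of -0.02 (log2). The gene before Oas2, Dtx1, stood at 0.0013 on A and -0.20 on B, and the gene after Oasl1, 2210016L21Rik, at 0.03 and -0.07. Sppl3, a signal peptide peptidase beyond Oasl1, had the lowest value at -0.48 (adjusted p = 0.0694 by limma). Between Oas3 and Oas1c, Oas1e was at 0.01 on A and -0.02 on B, against 1.36 and 1.21 for Oas3 on those arrays.

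**Figure D3:**
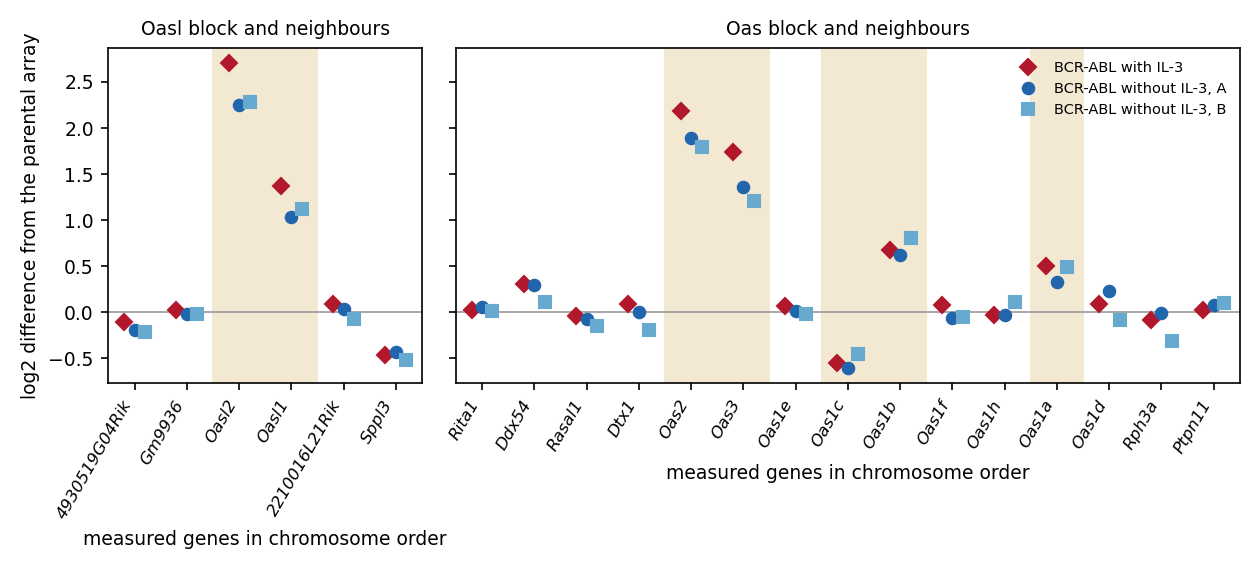
Measured genes of both chromosome 5 blocks are placed in chromosome order, with the log2 difference from the parental array for BCR-ABL cells with IL-3 and for A and B, and with OAS members shaded. The 14 measured genes that are not members lie between -0.48 and 0.21 in the mean of A and B, while Oasl2, Oasl1, Oas2 and Oas3 lie above 1.

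Whether IL-3 changed OAS transcripts in cells that already had the kinase was asked with the BCR-ABL culture given IL-3 (n = 1) and arrays A and B (n = 2). Of the 7 genes 0 were called, as were 0.00502% of all genes, and 3 had an unadjusted p under 0.05, as had 4.52% of all genes (limma). The 3 were Oas3, Oasl2 and Oas2. Oas3 stood at 1.74 with IL-3, against 1.36 and 1.21 without it, a difference of 0.45 (95% interval 0.12 to 0.78, adjusted p = 0.817 by limma). Oasl2 stood at 2.71 with IL-3, against 2.25 and 2.29 without it, a difference of 0.44 (0.12 to 0.76, adjusted p = 0.817 by limma). Oas2 stood at 2.19 with IL-3, against 1.89 and 1.79 without it, a difference of 0.35 (0.03 to 0.68, adjusted p = 1.000 by limma). These arrays therefore did not overlap, and none of the differences held after adjustment over all genes.

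Oasl1 stood at 1.37 with IL-3, against 1.04 and 1.12 without it, a difference of 0.29 (-0.03 to 0.62). Oas1a stood at 0.50 with IL-3, against 0.33 and 0.49 without it. For Oas1b and Oas1c the array with IL-3 lay between A and B, at 0.67 and -0.56, as it did for 34.6% of all genes. In all, 5 of the 7 genes were higher with IL-3 than on both A and B, as were 39.9% of all genes. The median of the 7 differences was 0.29, against 0.03 over all genes, and the highest upper bound of a 95% interval was 0.78 (log2). Both comparisons use arrays A and B, so their differences are not independent.

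The BCR-ABL array with IL-3 was last set beside the parental array, so that both cultures held the growth factor. With 1 array a side there is no replicate check, and no p-value is given. Oasl2 was 6.53-fold, Oas2 4.56-fold, Oas3 3.33-fold and Oasl1 2.59-fold higher, and these 4 of the 7 were past 2-fold, as were 1.1% of all genes in that direction. Oas1b was 1.59-fold and Oas1a 1.41-fold higher, and Oas1c was 1.47-fold lower. The median was 1.37, against 0.01 over all genes (log2). If each lone array is taken to vary like A and B, limma called 5 of the 7 higher and 0 lower, and over all genes 2.51% higher and 1.79% lower.

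Other genes of the pathway were set beside the family in BCR-ABL cells without IL-3 against parental cells. In that comparison 5.19% of all genes were called higher and 2.87% lower, the shares to set beside each list below. Of 7 measured genes that act with OAS or beside it 4 were called higher and 0 lower, with a median of 0.52 (log2). Sting1, the adaptor that cGAS signals to, was at 1.35 (adjusted p = 1.57e-05), and Cgas, a DNA sensor related to OAS in fold, was at 0.74 (adjusted p = 0.00535). Abce1, an ATPase that recycles ribosomes, was at 0.62 (adjusted p = 0.0154), and Eif2ak2, the kinase PKR that is activated by double-stranded RNA, was at 0.52 (adjusted p = 0.0457, all by limma). The RNA editor Adar at 0.50, and Pde12 and Akap7, which degrade oligoadenylates, at 0.44 and -0.04, did not pass. After centring, Sting1 was the 1 of these genes still called. With IL-3 against without it, 0 of the 7 were called, as were 0.00502% of all genes. Of the 7, 6 lay below 0, as did 7854 of all 19935 genes. The median of the 7 was -0.23, against 0.29 for the OAS genes and 0.03 over all genes. The difference between these lists was not tested.

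Of 10 genes of cytosolic RNA sensing and its adaptors 3 were called higher and 0 lower, with a median of 0.19 (log2). The nucleic acid sensor Zbp1 was 4.30-fold, Dhx58 2.92-fold and the RNA sensor Ddx58 1.53-fold higher. Ifih1, Mavs, Tlr3, Tlr7, Irf3, Tbk1 and Ikbke did not pass, with values from -0.16 to 0.45. Ddx58 lost its call after centring (adjusted p = 0.0576 by limma).

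Transcripts of the interferons were set beside the family too. Of 21 listed ligands 16 were measured, 0 were called higher and 1 was called lower. Over all genes 5.19% were called higher and 2.87% lower, shares at which few of 16 genes would be. The median of the 16 was -0.03 (log2). That median had no stable sign: it was 0.0069 after centring, -0.08 without A and 0.03 without B. Ifnb1 was at 0.02 on A and -0.07 on B, against 0 on the parental array, and Ifng at 0.04 and 0.01. The 9 measured interferon alpha genes Ifna2, Ifna4, Ifna5, Ifna9, Ifna11, Ifna12, Ifna13, Ifna14 and Ifna16 ran from -0.22 to 0.23, and the called gene was Ifnz, interferon zeta, at -1.01 (adjusted p = 0.000425 by limma). By the mark described above 9 of the 16 ligands were dim.

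Of 13 measured receptor chains and signal transducers 3 were called higher and 1 lower, with a median of 0.02 (log2). Irf9, the DNA-binding subunit of the complex that binds ISREs, was at 0.71 (adjusted p = 0.0105 by limma, and 0.0729 after centring). The feedback inhibitors Usp18 and Socs1 were at 3.74 and 1.79. Ifngr1, a chain of the interferon gamma receptor, was 2.15-fold lower (adjusted p = 0.000139 by limma). Ifnar1 and Ifnar2 at 0.04 and 0.02, Jak1 at -0.14, Tyk2 at -0.43 and Stat2 at 0.07 did not pass. The median of this list was -0.0034 without A and -0.04 without B.

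A pair of related families is given for scale. Of 7 measured genes of the IFIT and ISG15 system 4 were called higher and 0 lower, with a median of 1.15 against 1.08 for the OAS genes (log2). Usp18, Ifit1, Ifit3 and Ifit2 were at 3.74, 3.08, 2.92 and 1.15, and Uba7, Ube2l6 and Herc6, at -0.11, 0.28 and 0.33, did not pass. Of 8 measured interferon regulatory factors Irf7 (2.11) and Irf9 (0.71) were called higher and 0 lower, with a median of 0.07, or 0.03 without A and 0.12 without B. Usp18, Irf3 and Irf9 stand on more than 1 of these lists, and differences between the lists were not tested.

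**Figure D4:**
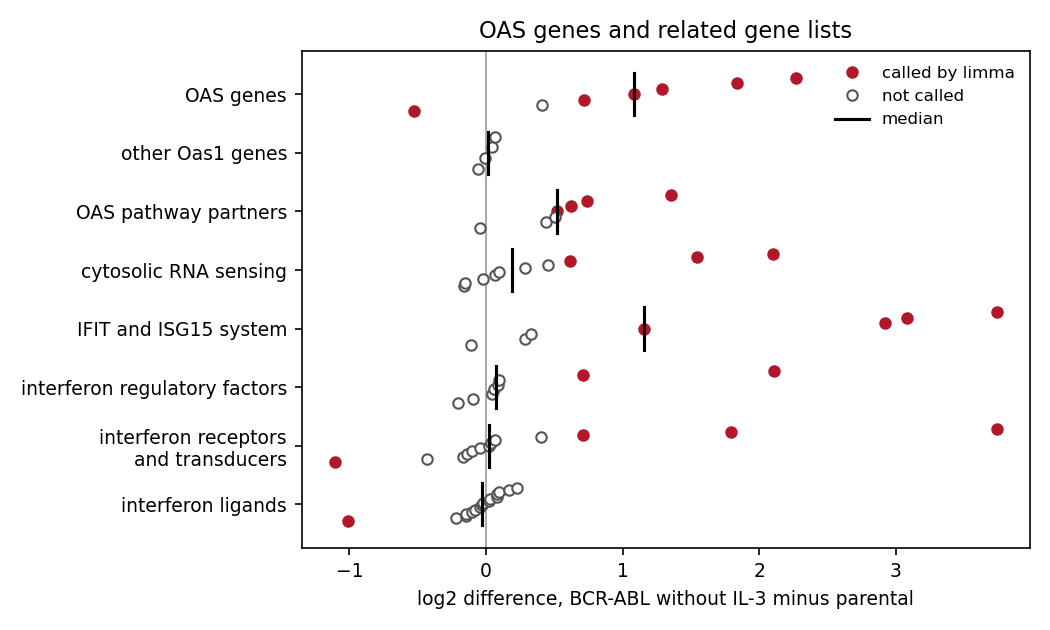
Each point is the log2 difference of 1 gene in BCR-ABL cells without IL-3 minus parental cells, by list, with filled points for genes called by limma and a bar at the median of each list. The OAS and IFIT medians lie at 1.08 and 1.15, and the medians of interferon ligands and of receptors and transducers at -0.03 and 0.02.

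The genes whose values were nearest to a called OAS gene were found by Euclidean distance over 3 log2 differences, those of A, B and the array with IL-3. For Oas2 they were Osm, Aqp9 and Rsad2, at distances of 0.085, 0.168 and 0.197. For Oas3 they were Xaf1 (0.085), Lif (0.090) and Tnfsf10 (0.232), and for Oasl2 Dusp5 (0.273), Irf7 (0.296) and Akap6 (0.355). For Oasl1 they were H2-Q4 (0.114), Hyou1 (0.134) and Sdf2l1 (0.170). The counts of other genes within a distance of 0.5 were 10 for Oasl2, 25 for Oas2, 45 for Oas3 and 104 for Oasl1, but 890 for Oas1b and 1480 for Oas1c. The nearest genes were Ccr4, Emc4 and Neil1 for Oas1b, and Abhd14b, Papolg and Cir1 for Oas1c.

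Markers of other cells that could carry OAS transcripts were checked in the same comparison. Of 11 measured markers of monocytes, macrophages and plasmacytoid dendritic cells 3 were called higher and 0 lower, against 5.19% and 2.87% of all genes. Their median was 0.03, or 0.05 without A and 0.11 without B (log2). The called genes were the Fc receptor Fcgr1 (2.50), the macrophage receptor Adgre1 (1.74) and Mpeg1 (0.65), and Mpeg1 lost its call after centring (adjusted p = 0.150 by limma). Csf1r, Itgam, Lyz2, Cd14, Siglech, Ccr9, Itgax and Cx3cr1 did not pass, with values from -0.15 to 0.20. Their part in the OAS result was not tested. Of 8 T and NK cell, 9 pro-B and B cell and 6 stroma and fibroblast markers 0 were called. Few calls would occur in lists this small at the 8.06% called over all genes. The medians were -0.12 for each list. Without A these medians were -0.18, -0.20 and -0.22, and without B -0.06, -0.04 and -0.01, in the same order of lists. Since levels were not analysed these values do not test the pro-B identity of the cells.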

How the data were processed

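RNA of 4 Ba/F3 samples was converted to biotin-labelled cDNA and hybridised to Gene 1.0 ST arrays, per the labels' protocols. The deposited table was read, from its values, as log2 signal minus that of the parental array, whose column is 0 for all 28815 probe sets. Background correction, normalization and probe summary are not given in the sources used here. Base 2 was inferred: 99.7% of 86431 non-zero values are, to within rounding, whole multiples of the step of single-precision numbers between 4 and 8. An odd multiple marks a stored number below 8 (dim). The signal above background was not analysed here, and precision is limited by the number of arrays.

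Of the probe sets 21780 had 1 symbol, 1605 several and 5430 none listed, and 21689 of the first matched the RefSeq gene table (GRCm38.p6). Means over a gene's probe sets gave 19935 genes. limma (3.58.1, in R 4.3.3) fitted the 4 arrays together with 3 group means, which leaves 1 residual degree of freedom, A against B. The groups of 1 array are thus taken to have the spread of A and B. The empirical Bayes prior had 16.38 degrees of freedom, so the spread used for each gene comes largely from all genes together. P-values are two-sided and Benjamini-Hochberg adjusted over all genes, and SE and 95% intervals come from this fit. The fit was also run on simulated data with the same spread for every gene and no offset between arrays. That run therefore does not check the p-values of these arrays, whose medians differ. Named genes are all measured members, the fixed pathway lists, locus neighbours and the 3 nearest genes of each called member. Members, lists and tests were chosen with earlier results of these data known. Protein comparisons that had been planned were not made. Alternatives were centring on array medians over all probe sets, medians of a gene's probe sets, adding shared probe sets and a threshold of 0.1. Others were 2-group fits, robust empirical Bayes, leaving out dim genes or A or B, and a fold of 1.5. Fitting probe sets one by one was added after seeing the data.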

Additional observations from a re-analysis of the deposited data

Results flagged for a closer look

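The probe set annotated to both Oas1a and Oas1g enters no comparison above, and its signal lay above the parental array on every BCR-ABL array. With IL-3 the BCR-ABL array gave 1.01, and without IL-3 A gave 0.840 and B 0.817, against 0 on the parental array (log2). In a fit of all 28815 probe sets one by one it was 1.78-fold higher in BCR-ABL cells without IL-3 than in parental cells (log2 0.83, SE 0.14, adjusted p = 0.0202 by limma), and the probe set of Oas1a alone did not pass in the main fit at 0.41. Which of the genes contributes the signal of the shared probe set cannot be told apart.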

How the results depend on the processing

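The count of OAS genes called higher in BCR-ABL cells without IL-3 was 5, and it was 4 after centring each array on its median. It was 7 of 8 genes when the probe set shared by Oas1a and Oas1g was added. Both further calls, Oas1a and Oas1g, rest on that 1 shared probe set, so they are not separate measurements. The 1 gene called lower, Oas1c, was lost (0 genes) after centring, without dim genes and with probe sets fitted one by one. With shared probe sets added, the family's median was 0.95 for BCR-ABL cells without IL-3 minus parental cells and 1.19 for BCR-ABL cells with IL-3 minus parental cells, and Oas1a passed (0.62, adjusted p = 0.0182 by limma). Of 98 tested values of single OAS genes under the alternatives 94 kept direction and side of the threshold, 3 lost their call and 1 gained it. The sign changed for 0, but most of these values could not change. Each measured gene has 1 probe set, so only centring and, for Oas1a, the shared probe set could alter a difference. The other alternatives could alter only its p-value or threshold, and the 2-group fits gave the same p-values. Of 28 values without A or B, which have no test, 2 changed sign: with IL-3 against without it, neither called, Oas1b was at 0.05 and Oas1c at 0.05 without B, in place of -0.04 and -0.03. In the comparison of BCR-ABL cells with IL-3 against those without, 0 OAS genes were called under any alternative run. For BCR-ABL cells with IL-3 minus parental cells, limma with the spread taken from A and B called 5 OAS genes higher and 0 lower, where it called 2.51% and 1.79% of all genes. After centring, 1 gene in place of 4 was called higher among the OAS partners and 1 in place of 2 among interferon regulatory factors, and calls over all genes were 570 in place of 1607 (1061 of 28815 when probe sets were fitted one by one). With T and NK markers, a threshold of 0.1 called 1 gene lower in place of 0. Leaving out A or B leaves no residual degree of freedom and gives values with no test. The count of OAS genes at least 2-fold higher was 4 either way. It could not fall, because the main count already required the gap on both A and B. No paired analysis was possible because the parental cells and the BCR-ABL cells with IL-3 gave 1 array each, so no comparison holds 2 pairs.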
